A study of Mus musculus with 6 samples.

Results

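Neurotrophins are secreted growth factors of the nervous system, and they were examined here together with their receptors in the mouse cerebellum with and without the cell adhesion molecule L1cam. The genes were chosen by symbol: the neurotrophins Bdnf and Ntf3, the Trk receptors Ntrk2 and Ntrk3, and Ngfr, the p75 receptor. The array annotation gave a probe set with a single symbol to 3 of the 5 genes, Bdnf, Ntrk2 and Ntrk3, with 1 probe set each among 12422 tested probe sets that cover 8251 named genes. Ntf3 and Ngfr were not analysed here. The arrays were Affymetrix Murine Genome U74Av2, hybridised with total RNA of whole cerebellum at postnatal day 11. The knockout group held 3 male mice hemizygous for the L1CAM knockout (-/Y), and the wild type group 3 siblings whose sex the labels do not give. Both groups were of strain 129S2/SvPasCrlf, with 1 array for each mouse. The labels do not say which part of L1cam was altered. Bdnf and Ntrk2 entered this set because their genotype differences in these data were already known, so the values below are a description, and no p-value is given for a single member.

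Bdnf binds TrkB, the receptor tyrosine kinase encoded by Ntrk2, and neurotrophin 3 binds TrkC, encoded by Ntrk3. Ligand binding pairs Trk receptors, which then phosphorylate each other and recruit adaptors that feed the Ras-ERK, PI3K-AKT and PLC-gamma cascades. The p75 receptor binds all neurotrophins and their uncleaved precursors. In the postnatal cerebellum, Bdnf supports the survival and migration of granule neurons, and mice without it have disturbed cerebellar foliation. Ntrk2 also yields a truncated receptor without the kinase, which is abundant in astrocytes, and Ntrk3 yields both kinase and kinase-less forms. The files do not say which part of a transcript these probe sets read, so the forms cannot be told apart.

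Bdnf transcription starts at several alternative first exons, some of which respond to neuronal activity through cAMP response elements (CRE). RefSeq lists 7 start windows for Bdnf and 1 for Ntrk2 in its promoter table for build GRCm38.p6, which held none for Ntrk3. The window shown for Bdnf is the only 1 of its 7 with the short CRE motif TGACG, or CGTCA on the other strand, in the 250 bases before the start. The Ntrk2 window is shown beside it because both genes had a lower knockout mean. Capitals mark the motif.
Bdnf, the third window in the table, chr2:109692186-109692435, + strand: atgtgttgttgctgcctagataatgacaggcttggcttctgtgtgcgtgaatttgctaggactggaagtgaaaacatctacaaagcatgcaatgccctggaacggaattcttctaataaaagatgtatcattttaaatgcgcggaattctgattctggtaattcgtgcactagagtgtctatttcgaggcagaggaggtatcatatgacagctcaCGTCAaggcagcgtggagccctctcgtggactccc
Ntrk2, chr13:58806319-58806568, + strand: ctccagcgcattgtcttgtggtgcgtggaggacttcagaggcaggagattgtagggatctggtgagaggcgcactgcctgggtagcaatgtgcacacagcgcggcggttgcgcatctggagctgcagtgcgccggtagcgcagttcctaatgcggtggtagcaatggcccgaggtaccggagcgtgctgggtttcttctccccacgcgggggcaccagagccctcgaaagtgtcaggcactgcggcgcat
In the Bdnf window the motif's last base lay 31 bases before the start. The short motif, searched on both strands, occurred in 17.8% of the 32851 windows of 250 bases in the table. The full palindrome TGACGTCA, which contains both short forms, occurred in 1.55% of windows and in none of those of Bdnf or Ntrk2. A match describes these letters only. The single Bdnf probe set sums over transcripts as far as it reads their common part, so its values assign no change to any start.

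L1cam, the targeted gene, read 8.25, 8.01 and 7.91 on the log2 scale in knockouts 1, 2 and 3, and 8.79, 8.48 and 8.73 in wild type mice 1, 2 and 3. All knockout arrays lay below all wild type arrays. The difference was -0.60 (95% interval -0.83 to -0.38), which did not pass over all probe sets in limma (adjusted p = 0.841). A 2-sided exact permutation test gave p = 0.1, the lowest value possible with 3 mice in each group. The array labelled knockout 1 stood apart in other measures. Its Gapdh control probe sets differed by 0.67 between the 3' and 5' ends, where the other 5 arrays lay between -0.048 and 0.13. Its Y-linked Eif2s3y read 7.11, against at least 8.59 elsewhere, although the mouse is labelled male. Uty, also Y-linked, read 6.67 there, against 7.32 to 7.45 elsewhere. Xist, which marks an inactive X chromosome, was not raised there, at 6.33 against 6.31 to 6.41 elsewhere. The labels name no female mouse, so whether this Xist probe set responds to an inactive X chromosome was not tested. Values without knockout 1 are therefore given for each member. Cerebellar markers were present, with Zic1 of granule neurons at percentile 99.7 of mean level and Pvalb of Purkinje and basket cells at 99.7. The dimmest measured Purkinje marker, Pcp4, lay at 11.4.

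No probe set on the array passed an adjusted p of 0.05 in limma, 0% of those tested, and the smallest adjusted p was 0.841. The members were accordingly 0 of 3. The same fit had 631 probe sets (5.08%) with an unadjusted p below 0.05. The members were picked in view of that contrast, so nothing is read from it about them.

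Bdnf read lower in every knockout than in every wild type mouse. Its probe set, 102727_at, gave 7.03, 7.13 and 7.08 in knockouts 1, 2 and 3, against 7.28, 7.43 and 7.33 in wild type mice 1, 2 and 3. The groups did not overlap, and the highest knockout lay 0.15 below the lowest wild type mouse. Such a separation in either direction was found for 10.4% of all probe sets, and for 6.63% with the knockouts lower. The knockouts averaged 7.08 ± 0.046 and the wild type mice 7.35 ± 0.077 (SD, n = 3 each). The difference was -0.26 (SE 0.064, 95% interval -0.41 to -0.12), or 1.20-fold lower. Of all probe sets, 83, or 0.668%, had a difference at or below this one, and 86, or 0.692%, at or below that of Ntrk2. Both genes were chosen with their differences known, so these ranks are no test. Without knockout 1 the difference of Bdnf was -0.24. Bdnf was dim, at percentile 19.6 of mean level. In whole tissue, fewer cells of a type and less RNA per cell cannot be told apart.

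**Figure D1:**
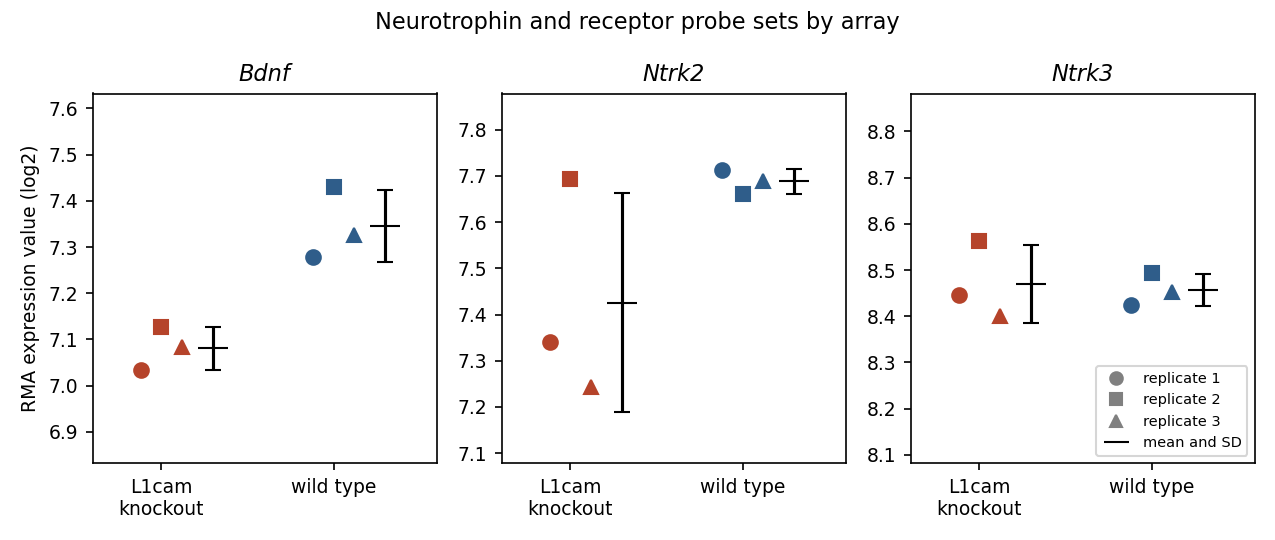
RMA log2 values of Bdnf, Ntrk2 and Ntrk3 for each array, with knockouts in red left of wild type in blue, symbols for the replicate number, and bars for mean and SD of 3 mice. All panels span the same log2 range: Bdnf separates the groups, Ntrk2 has 2 low knockouts and 1 at the wild type level, and Ntrk3 overlaps.

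Ntrk2 read lower in 2 of the 3 knockouts and at the wild type level in the other. Its probe set, 99069_at, gave 7.34, 7.69 and 7.24 in knockouts 1, 2 and 3, against 7.71, 7.66 and 7.69 in wild type mice 1, 2 and 3. Knockout 2 lay inside the wild type range, and the groups overlapped. The knockouts spread over 0.45 and the wild type mice over 0.053. The knockout SD of 0.24 exceeded that of 97.3% of all probe sets, while the wild type SD of 0.026 exceeded that of only 9.24%. The means were 7.43 ± 0.24 in knockouts and 7.69 ± 0.026 in wild type (SD, n = 3 each), and the difference was -0.26 (SE 0.10, 95% interval -0.49 to -0.034), or 1.20-fold lower. Its size turned on single knockouts: it was -0.22 without knockout 1 (95% interval -0.48 to 0.036), -0.40 without knockout 2 (-0.55 to -0.25) and -0.17 without knockout 3 (-0.40 to 0.055). Leaving out any of the wild type mice also gave an interval that included 0. Ntrk2 was also dim, at percentile 24.5.

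Astrocytes and Bergmann glia carry truncated TrkB, so their markers were set beside Ntrk2. Of 13 measured markers, 4 were higher and 9 lower in the knockouts (median difference -0.025), and the median over all 8251 genes was -0.022. The mean log2 level of the list was 11.75, 11.73 and 11.82 in knockouts 1, 2 and 3, against 11.71, 11.85 and 11.79 in wild type mice 1, 2 and 3, and the groups overlapped. The part of these cells in the Ntrk2 values was not tested. Single markers pointed both ways. Aqp4, the water channel of astrocyte endfeet, read 10.68, 11.04 and 11.04 in knockouts 1, 2 and 3, against 11.16, 11.43 and 11.28 in wild type mice 1, 2 and 3, a difference of -0.37. The dimmer Aqp4 probe set differed by -0.24, with overlapping groups. Fabp7, a fatty acid-binding protein of radial and Bergmann glia, differed by 0.17, with knockout 1 highest at 14.34 and overlapping groups. The dimmest marker, Slc1a2, lay at percentile 52.9, so none was near the bottom of the range.

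Ntrk3 differed between the groups by less than the spread within them. Its probe set, 95334_at, gave 8.45, 8.56 and 8.40 in knockouts 1, 2 and 3, against 8.43, 8.49 and 8.45 in wild type mice 1, 2 and 3. The knockouts held both the highest and the lowest value, so the wild type range lay inside theirs. The means were 8.47 ± 0.084 in knockouts and 8.46 ± 0.035 in wild type (SD, n = 3 each). The difference was 0.013 (95% interval -0.13 to 0.16), and 0.025 without knockout 1. Changes inside that interval could not be told from 0 with these arrays.

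The members were also set against each other within each array, which removes any factor common to an array. Relative to Ntrk3, and with the wild type mean set to 0, Bdnf lay at -0.30, -0.33 and -0.21 in knockouts 1, 2 and 3, against -0.034, 0.048 and -0.014 in wild type mice 1, 2 and 3. These groups did not overlap, but Ntrk3 differed by only 0.013 between them, so this ratio largely repeats the Bdnf values. Ntrk2 relative to Ntrk3 lay at -0.34, -0.10 and -0.39 in knockouts 1, 2 and 3, against 0.058, -0.064 and 0.0062 in wild type mice 1, 2 and 3. On this scale knockout 2 also lay below the wild type mice, because its Ntrk3 was the highest of all arrays. Bdnf relative to Ntrk2 did not separate the groups. It lay at 0.036, -0.22 and 0.18 in knockouts 1, 2 and 3, against -0.092, 0.11 and -0.020 in wild type mice 1, 2 and 3. Among the knockouts, knockout 2 had the highest value of all 3 genes, knockout 1 had the lowest Bdnf, and knockout 3 had the lowest Ntrk2 and Ntrk3.

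**Figure D2:**
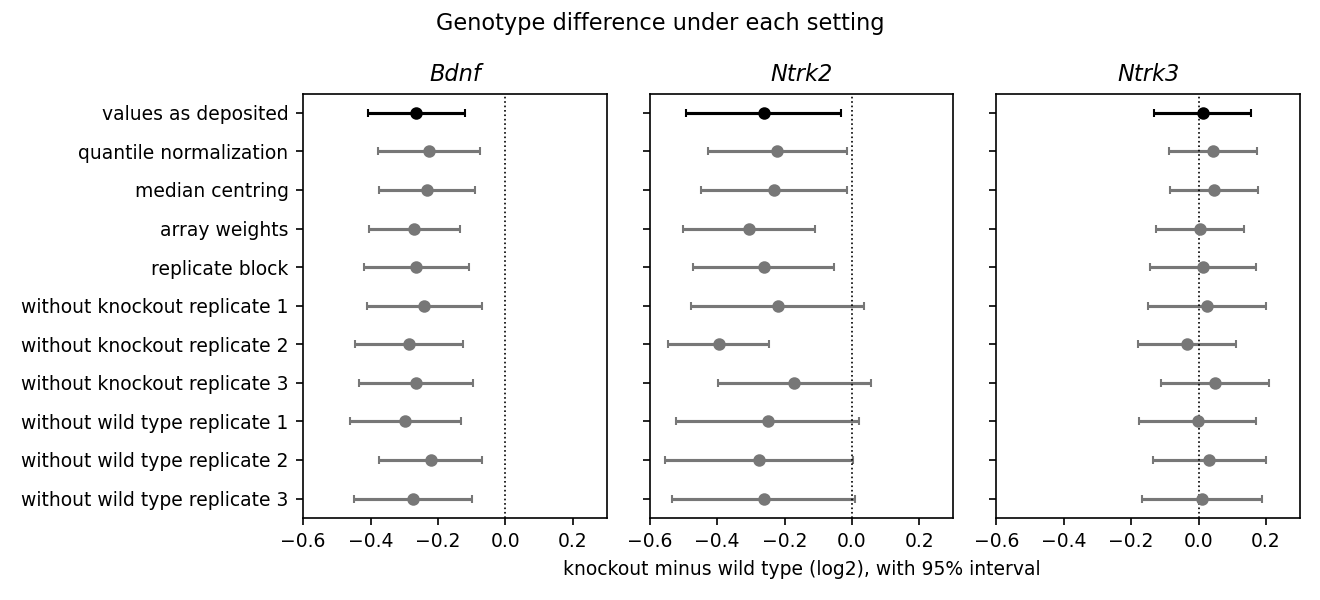
Knockout minus wild type difference on the log2 scale (points) with its 95% interval (bars) for Bdnf, Ntrk2 and Ntrk3, for the values as deposited (black) and under each alternative (grey). Bdnf stays between -0.30 and -0.22, Ntrk2 varies from -0.40 to -0.17 with the knockout left out, and Ntrk3 lies around 0.

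The profiles over the 6 arrays were compared with those of all other named probe sets by the root mean square distance of the log2 values, each centred on its own mean. Closest to Bdnf were Syt3, a synaptotagmin of vesicle release, at a distance of 0.038, Cck, a neuropeptide, at 0.046, and Crtam, an adhesion molecule of lymphocytes, at 0.047. Bdnf itself varied by 0.14 about its mean, and 422 of 10832 probe sets lay within 0.1 of it. The Syt3 probe set is of a type (_f_at) that may read related transcripts. Closest to Ntrk2 were Umps, an enzyme of pyrimidine synthesis, at 0.052, Ptprj, a receptor tyrosine phosphatase, at 0.066, and Dhh, a hedgehog ligand, at 0.067, with 94 probe sets within 0.1. The 3 named genes read high in knockout 2 and low in knockouts 1 and 3, which their choice by closeness to Ntrk2 fixes in advance. Ntrk3 was nearly flat, so 6519 probe sets lay within 0.1 of it. Its closest were Polk, a DNA polymerase, at 0.011, the ribonuclease inhibitor Rnh1 at 0.016 and the growth factor Vegfd at 0.018.

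**Figure D3:**
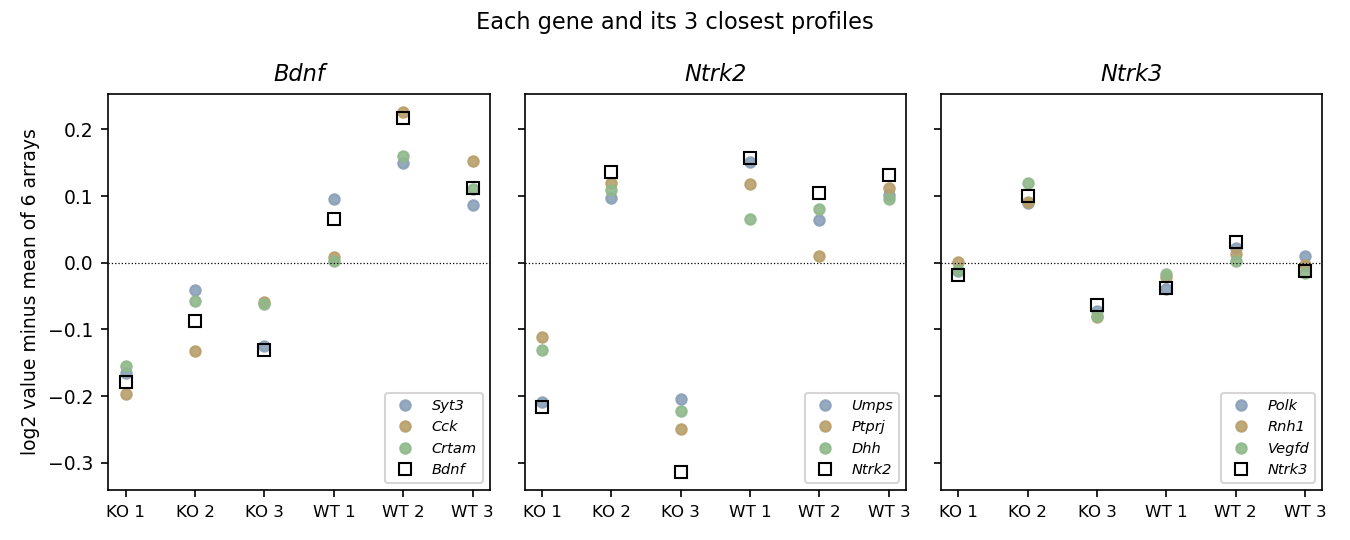
Log2 value minus the mean of the 6 arrays for Bdnf, Ntrk2 and Ntrk3 (open squares) and the 3 closest probe sets of other genes (filled circles), by array. Bdnf and its neighbours are all below their mean in the 3 knockouts, Ntrk2 and its neighbours are low in knockouts 1 and 3, and Ntrk3 stays between -0.063 and 0.10. The neighbours were picked for this likeness.

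Genes around the receptors were summarised with 1 probe set per gene, the brightest. The 8 lists placed 112 of 167 entries on the array, and 0 passed in limma. Of the 112, 39 were higher and 73 lower in the knockouts, where 5091 of all 8251 genes, or 61.7%, were lower. Median centring of the arrays added 0.032 to every difference. It moved the median over all genes from -0.022 to 0.010, beside which the centred list medians are to be read. The groups did not overlap for 14 of them, 9 lower and 5 higher, beside the 10.4% over all probe sets.

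Among other ligands and receptors, Sorl1 was the only 1 of 12 listed genes with a single-symbol probe set. Sorl1 is a sorting receptor of the Vps10p family that also handles TrkB in neurons. It read 7.79, 8.18 and 7.90 in knockouts 1, 2 and 3, against 8.13, 8.19 and 8.43 in wild type mice 1, 2 and 3, a difference of -0.30. As with Ntrk2, knockout 2 lay within the wild type range and the other knockouts below it. Without knockout 1 the difference was -0.21.

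Of 15 genes that cleave, sort or release neurotrophins, 3 were higher and 12 lower. Their median difference was -0.031, and 0.001 once the arrays were median centred. Furin, a protease that cleaves the precursors, differed by -0.001 and the prohormone convertases Pcsk1 by -0.085 and Pcsk5 by 0.033. Plat, the plasminogen activator, differed by 0.047, the highest of the list, and Plg, plasminogen, the lowest at -0.15.

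Of 12 adaptors and docking proteins of Trk receptors, 4 were higher and 8 lower. Their median difference was -0.009, and 0.022 once the arrays were median centred. Shc1, which binds the juxtamembrane tyrosine of Trk, differed by -0.13 at its brighter probe set and by 0.050 at the other. Shc3, its neuronal relative, differed by -0.005 and Sh2b1 by -0.059. The receptor phosphatase Ptprs was highest at 0.21, with knockout 1 at 11.77 and the other 5 arrays between 11.13 and 11.54. The ubiquitin ligase Cbl was lowest at -0.20 (95% interval -0.34 to -0.055), with all knockouts below all wild type mice, as for 6.63% of all probe sets.

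Of 15 genes in the Ras-ERK branch, 9 were higher and 6 lower (median 0.009, and -0.008 without wild type 3). The Ras activators Sos1 and Sos2 differed in opposite directions, by 0.14 and by -0.20. Nras differed by 0.045 at its brighter probe set and by -0.050 at the other. Rap1b, a small GTPase that sustains ERK activity, was the highest: it read 7.84, 7.77 and 7.89 in knockouts 1, 2 and 3, against 7.61, 7.61 and 7.62 in wild type mice 1, 2 and 3. The groups did not overlap, as for 10.4% of all probe sets, at a difference of 0.22. The only Rap1b probe set was dim, at percentile 27.3 of mean level.

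Of 16 genes in the PI3K-AKT and PLC-gamma branches, 5 were higher and 11 lower (median -0.053, and -0.021 after median centring). Plcg1, the phospholipase that docks at the C-terminal tyrosine of Trk, differed by -0.098. The PI3 kinase subunits differed by 0.020 for Pik3ca, by -0.19 for Pik3r1 and by -0.043 for Pik3r2. Akt1 was highest at 0.089, with overlapping groups. Without knockout 1 the median of this list was -0.0165.

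Of 11 genes downstream of the p75 receptor, 6 were higher and 5 lower (median 0.014, and -0.009 without knockout 2). Traf6, a ubiquitin ligase that binds p75, differed by 0.021, its partner kinase Irak1 by 0.078 and the NF-kappaB subunit Rela by 0.014. Rhoa, a GTPase under p75 control, was highest at 0.19 at its brightest probe set, while its other probe sets gave 0.093 and -0.062. Casp9 was lowest at -0.097, and its other probe sets ran from -0.21 to 0.18.

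Of 18 genes that regulate Bdnf or respond to neuronal activity as Bdnf does, 1 was higher and 17 lower. Their median difference was -0.035, beside -0.022 over all genes. This split varied with scaling and with single arrays. After median centring, which added 0.032 to every difference, 9 were lower of 18, beside 44.19% of all genes. Without knockout 1 there were 10 lower, beside 60.73% of all genes. Without wild type 3 there were 8 lower, with a median of 0.005, beside 61.35% of all genes. Other settings kept the split. With array weights 18 were lower, and without knockout 2 there were 17 lower, beside 61.27% and 61.14% of all genes. Creb1, the factor that binds CRE, differed by -0.041 at its brightest probe set. Its relative Crem differed by -0.17 and -0.15 at both its probe sets. Rest, a repressor of neuronal genes, differed by -0.011, and Mef2c, an activity-regulated factor, by 0.027. Fos, a marker of recent neuronal activity, read 7.64, 7.43 and 8.07 in knockouts 1, 2 and 3, against 7.60, 7.42 and 8.46 in wild type mice 1, 2 and 3. Fos, chosen after its values were seen, was high in wild type 3 and knockout 3, and its spread within each group exceeded the difference of -0.11 between them.

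**Figure D4:**
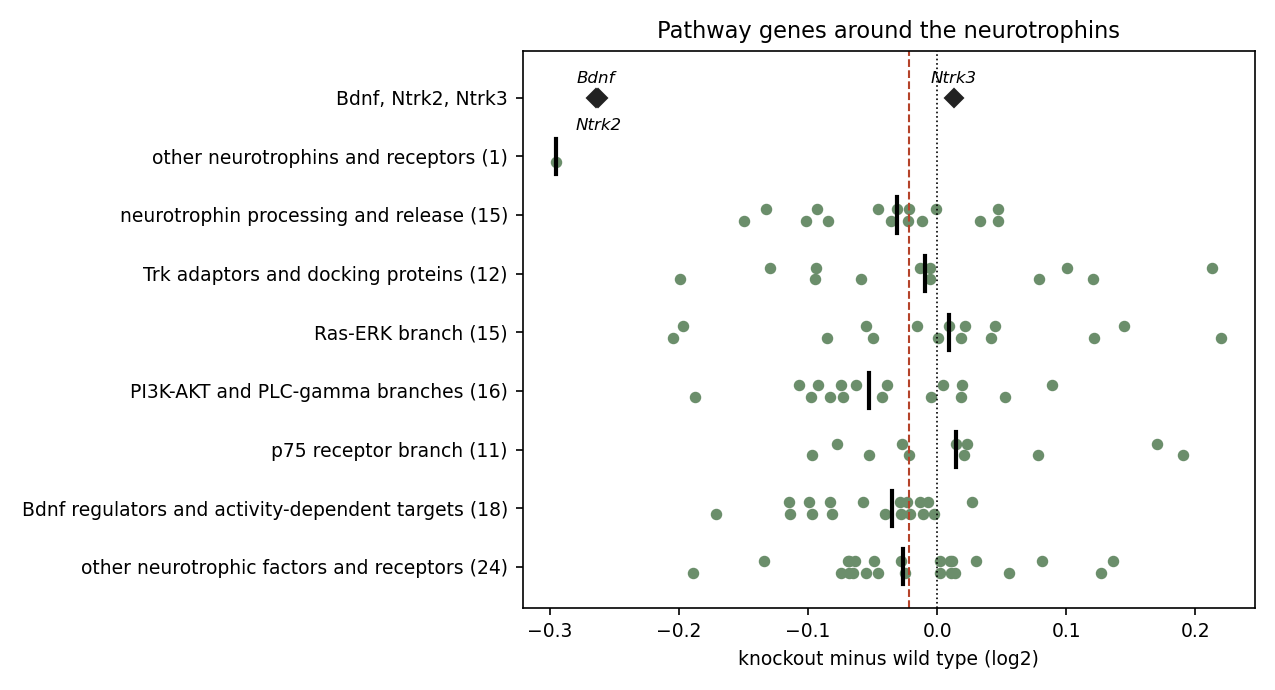
Knockout minus wild type difference on the log2 scale for Bdnf, Ntrk2 and Ntrk3 (diamonds) and for each measured gene of 8 pathway lists (circles, number of genes in brackets), with list medians as black bars. The dotted line marks 0 and the dashed line the median of all genes, -0.022. Every list with more than 1 gene spans 0. Bdnf and Ntrk2 lie to the left of all genes shown but Sorl1. They were chosen with these differences known, so their position is no result.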

How the data were processed

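The deposited values are on a log2 scale. The authors used RMA to make them, as the submitters' processing notes say. RMA corrects background, normalizes between arrays and summarises probes, so overall RNA amount cannot be read from them. The RMA version and the genome build were not given in the sources used here. There were 12488 probe sets, 66 of them array controls. Of the 12422 tested, 10833 had 1 symbol, 396 several and 1193 none.

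Genotype was fitted to all 12422 probe sets with limma 3.58.1 in R 4.3.3 (lmFit and eBayes, 2-sided, Benjamini-Hochberg adjustment, threshold 0.05). The number of arrays, 3 per genotype, limits the precision: the median probe set had a 95% interval of 0.158 on each side of its difference. On simulated data for this comparison over 12422 probe sets, 96 of 100 changes of 1.5-fold and 100 of 100 of 2-fold were called, with 9 false calls. These changes were simulated together, which eases the adjusted threshold, so a change that stands alone, such as that of L1cam (1.52-fold, limma adjusted p = 0.841), may still miss it. The noise was drawn independently for each value, with no array standing apart as knockout 1 did. Changes of 1.20-fold, the size seen for Bdnf and Ntrk2, were not simulated, so the rates do not cover them. Alternatives were quantile normalization, median centring, a filter that kept probe sets brighter than the 40th percentile, trended robust variance, array weights, a replicate block, each array left out and averaging over the probe sets of each gene.

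Members and lists were chosen with earlier results of these data known. Named from each pathway list were the first 3 measured genes, the highest and the lowest, and direct partners of the receptors; astrocyte markers were named after their values were seen. Promoter sequences came from RefSeq (GRCm38.p6).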

Additional observations from a re-analysis of the deposited data

How the results depend on the processing

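The means of Bdnf and Ntrk2 were lower in knockouts under every alternative that measured them, but the 95% interval of Ntrk2 included 0 in 5 of the 6 single omissions. Both genes were chosen with their differences known, and the omissions share arrays, so these values describe the data and are no test. Bdnf ran from -0.30 to -0.22 and Ntrk2 from -0.40 (without knockout 2) to -0.17 (without knockout 3) over the single omissions. Other scalings gave -0.23 for Bdnf, and -0.22 and -0.23 for Ntrk2, with quantile normalization and median centring. With array weights they were -0.27 and -0.31. Both were dimmer than the 40th percentile filter allows and have no value there. Ntrk3 ran from -0.034 (without knockout 2) to 0.048 (without knockout 3), and was -0.003 without wild type 1.

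The difference of L1cam ran from -0.70 to -0.53 over the single omissions, with limma adjusted p from 0.363 to 1. The count of probe sets past the threshold was 0 throughout, except for 1 without knockout 3 (range 0 to 1), which is no member. At an unadjusted p under 0.05 the count of 631 was 401 with the filter, which tests fewer probe sets, and 1162 with array weights, where the cause was not tested. Over single omissions it ran from 395 (without wild type 3) to 1078 (without knockout 2). The share of these that were higher was 48.3% in the values as deposited, against 66.0% with quantile normalization, 79.1% with median centring and 62.1% with the filter.

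Labels give both groups the same replicate numbers. Deviations from the group means correlated at 0.16, -0.32 and 0.17 for numbers 1, 2 and 3, with no common sign. Whether mice of the same number shared a litter or batch was not tested, and the main fit does not pair them. With the replicate block the differences were the same, with 95% intervals of -0.42 to -0.11 for Bdnf and -0.47 to -0.055 for Ntrk2, 0 probe sets past the threshold, 634 at an unadjusted p under 0.05, and an adjusted p of 0.196 for L1cam. The medians of the pathway lists turned sign in 13 of 95 recomputations, 4 of them for the p75 branch and 3 each for the Ras-ERK branch and the Trk adaptors, so no direction is given for these lists.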

Other observations

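Neurotrophic factors outside the neurotrophin family gave no common direction. Of 24 measured genes, 11 were higher and 13 lower in the knockouts. The median difference was -0.026, or 0.005 once the arrays were median centred, beside -0.022 and 0.010 over all genes. Gdnf, a survival factor for several neuron types, differed by 0.014 at its brighter probe set and by -0.14 at the other. Its relatives Nrtn and Artn differed by -0.069 and -0.065. Mdk, the heparin-binding growth factor midkine, was highest at 0.14, with knockout 1 at 11.40 and the other 5 arrays between 10.97 and 11.18. Igf1r, the receptor of insulin-like growth factor 1, was lowest at -0.19 (95% interval -0.36 to -0.014). Igf1r read 9.75, 9.93 and 9.94 in knockouts 1, 2 and 3, against 10.06, 9.95 and 10.18 in wild type mice 1, 2 and 3, so the groups did not overlap, as for 10.4% of all probe sets.

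Markers of cells that could make or receive neurotrophins were compared in the same way. Granule neuron markers had 2 of 8 higher (median -0.045) and granule cell progenitors 2 of 6 (median -0.043). Purkinje markers had 2 of 8 higher (median -0.041), with list means of 11.06 to 11.21 in knockouts and 11.05 to 11.27 in wild type mice. Oligodendrocyte markers had 2 of 8 higher and a median of -0.11. Their list means overlapped, at 10.48 to 10.77 in knockouts, with knockout 1 lowest, and 10.66 to 10.82 in wild type mice. Endothelium and pericytes had 4 of 9 higher (median -0.005), microglia and blood 3 of 8 (median -0.035), and meninges and choroid plexus 4 of 8 (median 0.012). The last list had means of 9.74 in knockout 3 and 9.73 in wild type 1 and of at least 10.07 in the other arrays. Within the pooled list of microglia and blood, the globins read higher in the knockouts, though neither passed over all probe sets. Hba-a1, an alpha globin, gave 14.58, 14.72 and 14.73 in knockouts 1, 2 and 3, against 14.48, 14.32 and 14.36 in wild type mice 1, 2 and 3. Its groups did not overlap, as for 10.4% of all probe sets, and differed by 0.29. Hbb-b2, a beta globin, differed by 0.24, with overlapping groups. The part of these cells in the member values was not tested.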
